A study of Mus musculus with 48 samples.

Results

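B16-D5 is a subclone of the B16 mouse melanoma line, and the tumors described here grew under the skin of C57BL/6J mice. The genes described are 10 genes of MHC class I and peptide loading, chosen by name and not by their values: the heavy chain genes H2-K1, H2-D1, H2-T23 and H2-Q7, the light chain gene B2m, the peptide transporter genes Tap1 and Tap2, the loading factor gene Tapbp, the peptide trimming gene Erap1 and the regulator gene Nlrc5. They are 10 of the 55450 genes in the count table, and all 10 passed the filter on low counts in both experiments. RNA of whole tumors was sequenced from 48 libraries, each of a separate tumor, in 16 conditions of 3 tumors. The first experiment was a time course of 30 tumors in wild-type (WT) mice, with an untreated group at 0 hours and untreated, IgG and anti-PD-1 groups collected 6 hours, 1 day and 3 days later. The second experiment held 18 tumors, from WT mice and from mice labelled iNOS KO, each untreated, after IgG or after anti-PD-1, collected at day 7. Tumor cells were injected 8 days before the first antibody dose in every group, and the study's methods place doses of both antibodies on days 0 and 3. Tumors collected at 6 hours or 1 day were thus taken before the second dose. Whether day 3 tumors were collected before or after that dose is not stated. Mice arrived at 4 weeks of age and were kept for 2 weeks before use. The KO label refers to the host mouse only, since the injected tumor cells were the same WT line in all groups.

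MHC class I molecules carry peptides from inside the cell to its surface, where CD8+ T cells read them. The proteasome cuts proteins into peptides, the TAP transporter moves them into the endoplasmic reticulum, ERAP1 trims them there, and tapasin holds empty class I molecules to the transporter until a peptide is bound. Interferon-gamma raises transcription of these genes in many cell types, in part through the transactivator NLRC5, and B16 lines are known for low basal class I that interferon can induce. Whole-tumor RNA mixes melanoma cells with host cells, so fewer cells of a type and less RNA per cell cannot be told apart in any value below.

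Libraries held 25574203 to 47687872 counts on genes in the time course and 11625862 to 40959309 at day 7. The melanoma markers Mlana, Pmel, Tyr, Tyrp1, Dct, Mitf and Sox10 summed to between 9306 and 20440 CPM (normalized counts scaled to a common library size) over all 48 libraries, and the leukocyte markers to between 45.3 and 681 CPM. The treatment field matched the title in 14 of 48 samples and the genotype field read WT for the 9 samples with KO in the title, so groups were taken from the titles. Nos2, the gene that encodes iNOS, did not separate the genotypes: its level was 1.15 to 5.92 CPM in the 9 libraries labelled KO and 1.40 to 7.28 CPM in the 9 WT libraries at day 7. The KO minus WT log2 fold change of Nos2 over the 3 treatments was 0.18 (adjusted p = 1), and a whole-gene count cannot show whether a shortened transcript remains. Genes of olfactory, vomeronasal and taste receptors, called sensory receptors here, summed to 3903 CPM in replicate 3 and 1374 CPM in replicate 4 of the WT anti-PD-1 group and to 973 CPM in KO untreated replicate 1, against 13.6 to 246 CPM in the other 15 day 7 libraries. Leaving these 3 libraries out leaves 1 tumor, replicate 2, in WT anti-PD-1 and 2 in KO untreated, and replicate 2 was the highest WT anti-PD-1 tumor in the members' mean level. In such fits the lone tumor is assumed to vary like the other groups. Each day 7 comparison of the members is given with and without the 3 libraries. Levels, orders of conditions, correlations between members, genes of like pattern and some calls of other genes are given with all 18 libraries only.

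Promoter windows are printed first because 3 of the class I heavy chains share a run of motifs that the other members hold in part. Each window runs from 220 bases before the RefSeq transcription start through the first 20 transcribed bases (GRCm38.p6), on the gene's strand, with motif matches in capitals. The motifs searched on both strands were GAANNGAAA and GAAANNGAA (spellings of the interferon response element with different spacing), GGGATTCCC (NF-kappaB), CCAAT and TGACG. H2-K1 lies at chr17:34000328-34000567 (minus strand), H2-D1 at chr17:35262874-35263113 (plus strand) and H2-Q7 at chr17:35438935-35439174 (plus strand).
H2-K1: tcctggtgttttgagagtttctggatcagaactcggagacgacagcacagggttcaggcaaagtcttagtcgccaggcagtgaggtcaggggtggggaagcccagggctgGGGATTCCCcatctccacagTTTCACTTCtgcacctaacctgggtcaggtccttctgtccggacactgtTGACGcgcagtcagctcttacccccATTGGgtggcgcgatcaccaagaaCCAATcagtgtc
H2-D1: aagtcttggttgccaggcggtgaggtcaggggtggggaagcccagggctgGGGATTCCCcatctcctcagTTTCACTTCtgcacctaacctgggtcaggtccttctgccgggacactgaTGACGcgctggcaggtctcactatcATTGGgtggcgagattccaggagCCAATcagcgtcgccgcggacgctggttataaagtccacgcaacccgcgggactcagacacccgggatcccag
H2-Q7: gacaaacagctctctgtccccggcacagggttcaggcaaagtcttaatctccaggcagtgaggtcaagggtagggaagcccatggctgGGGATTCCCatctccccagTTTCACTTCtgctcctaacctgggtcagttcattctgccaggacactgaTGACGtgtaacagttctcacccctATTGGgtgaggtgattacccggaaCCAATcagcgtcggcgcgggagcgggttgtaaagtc

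All 3 windows held GGGATTCCC, then the interferon spelling as TTTCACTTC on the opposite strand, then TGACG and a pair of CCAAT matches, in that order. The interferon spelling began at −90 in H2-K1, −150 in H2-D1 and −113 in H2-Q7, counted from the transcription start. GGGATTCCC was present in 0.271% of the 32851 windows of the same length and GAANNGAAA in 6.05%. H2-T23 (chr17:36032682-36032921, minus strand), B2m (chr2:122147467-122147706, plus strand) and Erap1 (chr13:74639633-74639872, plus strand) held the other spacing, GAAANNGAA, which was present in 6.81% of windows.
H2-T23: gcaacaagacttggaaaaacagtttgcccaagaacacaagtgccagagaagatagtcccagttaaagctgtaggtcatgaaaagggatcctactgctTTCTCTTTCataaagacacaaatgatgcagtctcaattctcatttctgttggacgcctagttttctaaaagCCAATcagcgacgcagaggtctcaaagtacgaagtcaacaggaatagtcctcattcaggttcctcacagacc
B2m: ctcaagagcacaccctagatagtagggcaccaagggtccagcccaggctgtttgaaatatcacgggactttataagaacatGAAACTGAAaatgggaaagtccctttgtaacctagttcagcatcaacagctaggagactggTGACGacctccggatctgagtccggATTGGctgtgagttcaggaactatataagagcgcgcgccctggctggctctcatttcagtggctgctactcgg
Erap1: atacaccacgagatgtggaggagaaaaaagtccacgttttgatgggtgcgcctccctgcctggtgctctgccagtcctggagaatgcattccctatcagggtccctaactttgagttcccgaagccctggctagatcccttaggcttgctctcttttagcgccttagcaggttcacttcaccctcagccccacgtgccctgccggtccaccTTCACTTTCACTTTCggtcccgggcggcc

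The match began at −123 in H2-T23 and −139 in B2m, and Erap1 held 2 that overlap, at −9 and −3. Tap1 (chr17:34187336-34187575, plus strand) had neither spelling in its window, and a match elsewhere was not searched for. Its start lies 226 bases from that of Psmb9, an immunoproteasome subunit gene read in the opposite direction, so most of the window below is shared by both genes.
Tap1: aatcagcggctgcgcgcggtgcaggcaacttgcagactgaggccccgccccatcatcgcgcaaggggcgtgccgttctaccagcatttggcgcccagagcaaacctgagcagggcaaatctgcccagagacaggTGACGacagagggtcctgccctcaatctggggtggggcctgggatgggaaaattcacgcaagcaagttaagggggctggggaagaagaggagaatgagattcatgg

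Of the 8 members with a window, 6 held an interferon spelling against 12% of all windows, 6 held CCAAT against 32.7% and 5 held TGACG against 18.3%. These are matches of letters and not measured binding. In the GENCODE vM21 annotation of the files, 7 of the 10 genes lie on chromosome 17, in or near the MHC: Tapbp at 33915899-33929292, H2-K1 at 33996017-34000347, Tap1 at 34187553-34197225, Tap2 at 34203527-34216321, H2-D1 at 35262730-35267499, H2-Q7 at 35439155-35443773 and H2-T23 at 36029773-36032855. The other members lie at 122147686-122153083 on chromosome 2 (B2m), 74639568-74693201 on chromosome 13 (Erap1) and 94434356-94527272 on chromosome 8 (Nlrc5). Counts of H2-Q7 are the least certain, since 11.98% of its 100-base windows also occur in other genes, most in H2-Q10, H2-Q5 and H2-Q6. That share was 3.59% for H2-D1, 3.15% for H2-T23, 0.96% for H2-K1, 0.08% for Tapbp and 0 for the other 5 members.

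Per kilobase of exon, with the exons of all annotated transcripts of a gene joined, the light chain gene was far above the rest. In RPKM, which is CPM per kilobase of exon, the median over the 30 time-course tumors was 5860 for B2m, 162 for H2-D1 and 133 for H2-K1, the classical heavy chains that present peptides to T cells. The loading genes followed at 23.1 for Tapbp, 12.3 for Tap1 and 11.5 for Tap2, with Nlrc5 at 10.6, the non-classical heavy chain H2-T23 at 8.93, Erap1 at 6.64 and the Qa-2 family heavy chain H2-Q7 at 4.92. B2m exceeded H2-K1 in RPKM in every library, by 27.3-fold to 112-fold in the time course and by 32.3-fold to 76.8-fold at day 7. These folds depend on the joined exon lengths, 860 bases for B2m and 2938 for H2-K1. In CPM the time-course medians were 5041 for B2m and 390.4 for H2-K1. The medians of the 18 day 7 tumors were 5280 for B2m, 105 for H2-D1, 78.4 for H2-K1, 15.9 for Tapbp, 8.75 for Nlrc5, 8.56 for Tap2, 7.26 for Tap1, 5.16 for Erap1, 5.10 for H2-T23 and 2.92 for H2-Q7. The 2 experiments were normalized separately, so no test was made between them.

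Tumors of the same condition differed widely. From the lowest to the highest of the 30 time-course tumors, H2-T23 spanned 9.19 to 133 CPM (median 25.8), H2-Q7 5.21 to 71.9 CPM (median 20.97) and Nlrc5 45.5 to 466 CPM (median 90.4). B2m had the narrowest range, 2590 to 10530 CPM (median 5041), and Erap1 spanned 31.9 to 139 CPM (median 48.4). IgG day 1 replicate 4 was the highest of the 30 libraries for 9 members, all but H2-Q7, whose highest library was untreated 0 hours replicate 3. The ratio of H2-D1 to H2-K1 CPM moved far less than either gene, from 0.873 to 1.32 (median 1.09) in the time course and from 1.01 to 1.29 (median 1.11) at day 7.

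**Figure D1:**
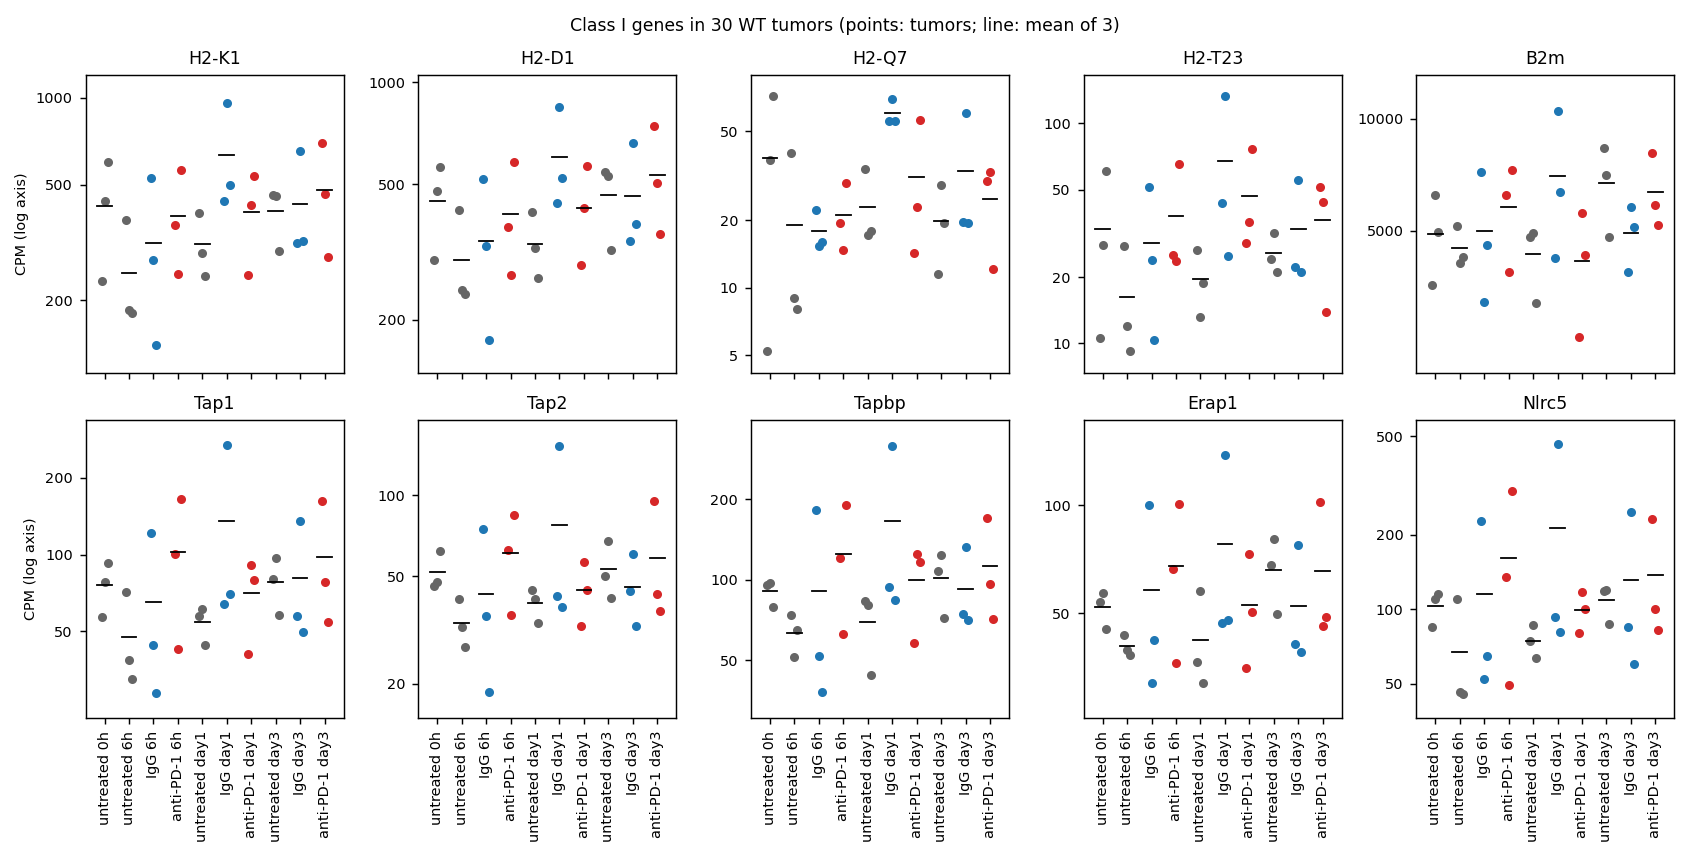
Level of each of the 10 genes (CPM, log axis) in each tumor of the time course, by condition; points are tumors and lines are means of 3. IgG day 1 had the highest mean for all 10 genes, its replicate 4 was the highest tumor of all 30 for 9 of them, and every pair of neighbouring conditions in the order of means overlapped.

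Among the time-course conditions, the mean of IgG day 1 was the highest for all 10 members, and untreated 6 hours was the lowest for 8 of them. The exceptions were H2-Q7, lowest in IgG 6 hours, and B2m, lowest in anti-PD-1 day 1. In the order of condition means, all 9 neighbouring pairs overlapped in their single values for every member. Such overlap of 3 tumors with 3 describes the values and is not a test of a difference. All levels that follow are mean CPM ± SD (n = 3 tumors), in falling order.

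H2-K1 and H2-D1 encode the classical heavy chains. H2-K1 measured 634 ± 287 in IgG day 1, 482 ± 209.5 in anti-PD-1 day 3, 431 ± 196 in IgG day 3, 424 ± 184 in untreated 0 hours, 406 ± 95.8 in untreated day 3, 403 ± 149 in anti-PD-1 day 1, 391 ± 161 in anti-PD-1 6 hours, 314 ± 196 in IgG 6 hours, 311 ± 81.6 in untreated day 1 and 248 ± 114 in untreated 6 hours. H2-D1 measured 602 ± 211 in IgG day 1, 534 ± 193 in anti-PD-1 day 3, 465 ± 125 in untreated day 3, 461 ± 174 in IgG day 3, 446 ± 135 in untreated 0 hours, 426 ± 138 in anti-PD-1 day 1, 409 ± 159 in anti-PD-1 6 hours, 341 ± 172 in IgG 6 hours, 334 ± 75.3 in untreated day 1 and 300.2 ± 103 in untreated 6 hours. The 5 lowest conditions were the same for both genes, in the same order.

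The non-classical heavy chains were lower and relatively more variable. H2-T23, the Qa-1 heavy chain that binds the inhibitory NKG2A receptor through its peptide, measured 67.3 ± 58.0 in IgG day 1, 46.7 ± 25.7 in anti-PD-1 day 1, 38.1 ± 23.7 in anti-PD-1 6 hours, 36.3 ± 19.7 in anti-PD-1 day 3, 33.1 ± 25.5 in untreated 0 hours, 33 ± 19.5 in IgG day 3, 28.6 ± 20.98 in IgG 6 hours, 25.7 ± 5.57 in untreated day 3, 19.5 ± 6.69 in untreated day 1 and 16.3 ± 9.96 in untreated 6 hours. H2-Q7 measured 60.5 ± 8.15 in IgG day 1, 38.1 ± 33.3 in untreated 0 hours, 33.2 ± 23.6 in IgG day 3, 31.3 ± 22.2 in anti-PD-1 day 1, 24.99 ± 11.3 in anti-PD-1 day 3, 23.04 ± 9.44 in untreated day 1, 21.2 ± 7.43 in anti-PD-1 6 hours, 19.9 ± 8.63 in untreated day 3, 19.1 ± 18.3 in untreated 6 hours and 17.9 ± 3.84 in IgG 6 hours. Relative to the mean, the IgG day 1 tumors lay closer together for H2-Q7 than for any other member.

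B2m, the light chain shared by all class I molecules, measured 7033 ± 3209 in IgG day 1, 6724 ± 1782 in untreated day 3, 6373 ± 1512 in anti-PD-1 day 3, 5784 ± 1739 in anti-PD-1 6 hours, 4995 ± 2012 in IgG 6 hours, 4929 ± 978 in IgG day 3, 4914 ± 1334 in untreated 0 hours, 4497 ± 571 in untreated 6 hours, 4318 ± 968 in untreated day 1 and 4149 ± 1493 in anti-PD-1 day 1. Its highest condition mean was 1.70-fold its lowest, against 4.13-fold for H2-T23, the widest of the 10.

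The transporter and loading genes ran in nearly the same order of conditions. Tap1 measured 135 ± 117 in IgG day 1, 103 ± 61.0 in anti-PD-1 6 hours, 98.2 ± 56.5 in anti-PD-1 day 3, 81.1 ± 47.9 in IgG day 3, 78.5 ± 19.5 in untreated day 3, 76.1 ± 17.9 in untreated 0 hours, 70.7 ± 26.6 in anti-PD-1 day 1, 65 ± 50.02 in IgG 6 hours, 54.4 ± 8.89 in untreated day 1 and 47.5 ± 20.9 in untreated 6 hours. Tap2, its partner in the transporter, measured 77.6 ± 64.6 in IgG day 1, 60.9 ± 24.4 in anti-PD-1 6 hours, 58.5 ± 31.8 in anti-PD-1 day 3, 53.0 ± 13.2 in untreated day 3, 51.9 ± 8.94 in untreated 0 hours, 45.8 ± 14.1 in IgG day 3, 44.5 ± 11.8 in anti-PD-1 day 1, 43.02 ± 28.9 in IgG 6 hours, 39.8 ± 5.58 in untreated day 1 and 33.6 ± 7.004 in untreated 6 hours. Tapbp, which encodes tapasin, measured 165 ± 132 in IgG day 1, 125 ± 64.3 in anti-PD-1 6 hours, 113 ± 51.5 in anti-PD-1 day 3, 101 ± 26.8 in untreated day 3, 99.9 ± 36.5 in anti-PD-1 day 1, 92.7 ± 35.1 in IgG day 3, 90.6 ± 9.87 in untreated 0 hours, 90.5 ± 79.4 in IgG 6 hours, 69.2 ± 21.9 in untreated day 1 and 63.3 ± 11.2 in untreated 6 hours. In all 3 genes IgG day 1 had an SD nearly as large as its mean.

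Erap1 measured 77.9 ± 52.6 in IgG day 1, 68.0 ± 32.4 in anti-PD-1 6 hours, 66.2 ± 15.6 in untreated day 3, 65.8 ± 31.9 in anti-PD-1 day 3, 58.2 ± 36.9 in IgG 6 hours, 52.9 ± 19.1 in anti-PD-1 day 1, 52.6 ± 21.9 in IgG day 3, 52.0 ± 6.07 in untreated 0 hours, 42.02 ± 13.7 in untreated day 1 and 40.5 ± 2.79 in untreated 6 hours. Nlrc5 measured 214 ± 219 in IgG day 1, 162 ± 127 in anti-PD-1 6 hours, 138 ± 81.7 in anti-PD-1 day 3, 131 ± 102 in IgG day 3, 115 ± 97.9 in IgG 6 hours, 109 ± 18.4 in untreated day 3, 104 ± 16.2 in untreated 0 hours, 99.7 ± 18.8 in anti-PD-1 day 1, 74.9 ± 11.2 in untreated day 1 and 67.3 ± 36.9 in untreated 6 hours. In IgG day 1 the SD of Nlrc5 was larger than its mean.

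The first question of the time course was whether anti-PD-1 changed tumors relative to the IgG control. No member passed an adjusted p of 0.05 at any of the 3 times, where called genes were 0% of the 26848 genes tested in either direction by edgeR. At 6 hours all 10 members were higher in anti-PD-1 than in IgG, as were 42.9% of all genes, from a log2 fold change of 0.21 for B2m to 0.66 for Tap1 (95% interval −0.50 to 1.82, adjusted p = 1). Tap1 at 6 hours was 101, 42.6 and 165 CPM after anti-PD-1 and 122, 44.4 and 28.6 CPM after IgG, so the groups overlapped. On day 1 all 10 were lower, while 48.3% of all genes were higher, from −0.50 for H2-D1 to −1.10 for Nlrc5 (95% interval −2.44 to 0.24, adjusted p = 1). Without IgG day 1 replicate 4 the Nlrc5 value turned to 0.19. That tumor also enters the day 1 minus 6 hour and the day 3 minus day 1 differences below. On day 3 all but H2-Q7 were higher (9 of 10, against 50.2% of all genes), from −0.41 for H2-Q7 to 0.37 for B2m. The members' median log2 fold change was 0.36 at 6 hours, −0.74 on day 1 and 0.24 on day 3, against −0.07, −0.01 and 0.00 over all genes. Averaged over the 3 times the median was −0.01, from −0.37 for H2-Q7 to 0.02 for Tap2, with 4 of 10 above 0, against 44.5% of all genes. Differences between times in this contrast were tested only after the values had been seen. The day 1 difference minus the 6 hour difference, which share no samples, was below 0 for all 10, while 53.7% of all genes were above 0. It ran from −0.76 for H2-D1 to −1.60 for Tap1, and the lowest unadjusted p was 0.0556 for B2m (adjusted p = 0.9999). Day 3 minus day 1 was above 0 for 10 of 10 members, against 50.4% of all genes. Day 3 minus 6 hours was above 0 for 2 of 10, against 53.9%, and neither called a member. At 6 hours the 95% intervals differed in width, from −0.49 to 0.92 on the log2 scale for B2m to −1.13 to 1.62 for H2-Q7. Each interval holds the effects that 3 tumors a group do not exclude. The intervals are not adjusted for the number of genes tested and do not give the smallest effect that could have been called.

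IgG against no antibody on day 1 gave the largest median change of the members among the WT comparisons of 2 conditions. H2-K1 was 439, 964 and 499 CPM after IgG and 402, 290.3 and 242 CPM untreated, and H2-Q7 was 55.6, 69.9 and 56.0 CPM after IgG and 33.9, 17.3 and 17.9 CPM untreated. Both genes lay higher in every IgG tumor than in any untreated tumor. H2-T23 was 43.7, 133 and 24.9 CPM after IgG and 26.5, 13.2 and 18.9 CPM untreated, and Nlrc5 was 93.3, 466 and 81.4 CPM after IgG and 74.6, 86.2 and 63.8 CPM untreated, so these overlapped. All 10 members were higher after IgG, as were 52.9% of all genes, from 0.70 for B2m to 1.79 for H2-T23 (SE 0.68). The members' median was 1.14 against 0.04 over all genes. An unadjusted p under 0.05 was reached by 7 members, against 4.01% of all genes, and 5 members did not overlap between groups, against 6.26%. No member passed the adjusted threshold (adjusted p = 0.859 for each, edgeR with Benjamini-Hochberg adjustment), and called genes were 0% of those tested. Without IgG day 1 replicate 4, the highest IgG tumor, the median was 0.34 and no member had an unadjusted p under 0.05, although all 10 stayed higher. Leukocyte markers moved with this contrast: the 5 markers summed to 422 to 567 CPM in the IgG tumors and 144 to 323 CPM in the untreated ones, with none of the 5 at 0 in a whole group. Neutrophil markers also did not overlap, at 10.8 to 16.8 against 4.66 to 7.57 CPM, with 2 of the 4 at 0 in all untreated tumors. The part of these cells in the result was not tested. Anti-PD-1 day 1 tumors measured 243, 428 and 537 CPM for H2-K1, inside the range of the other day 1 tumors.

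Other WT contrasts called no member, with a lowest adjusted p of 0.260 for H2-Q7 between day 1 and 6 hours. IgG against untreated ran from −0.09 for H2-Q7 to 0.81 for H2-T23 at 6 hours, with 9 of 10 members higher, against 57.8% of all genes. On day 3 it ran from −0.45 for B2m to 0.73 for H2-Q7, with 5 of 10 higher, against 46.2%. The mean over the 3 times was above 0 for all 10, against 55.6% of all genes, from 0.14 for B2m to 0.99 for H2-T23 (unadjusted p = 0.0168, adjusted p = 0.527). Anti-PD-1 against untreated at 6 hours ran from 0.16 for H2-Q7 to 1.26 for Nlrc5. In untreated tumors alone, all 10 members were lower at 6 hours than at 0 hours, from −0.13 for B2m to −1.02 for H2-T23, while 45.6% of all genes were higher. All 10 were also lower on day 1, while 45.1% of all genes were higher, from −0.19 for B2m to −0.76 for H2-T23. Skeletal muscle markers summed to 554 to 3793 CPM at 0 hours and 1.57 to 16.6 CPM on day 1, and keratinocyte markers to 14.2 to 3340 and 1.075 to 2.48 CPM, and their part in the result was not tested. Day 3 differed from 0 hours by −0.93 for H2-Q7 to 0.45 for B2m. Averaged over treatments, day 1 minus 6 hours ran from −0.01 for B2m to 0.86 for H2-Q7, and day 3 minus 6 hours from 0.17 for Erap1 to 0.49 for H2-K1. None of these differences exceeded the spread between tumors by the adjusted test, and called genes were 0% of those tested in each.

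**Figure D2:**
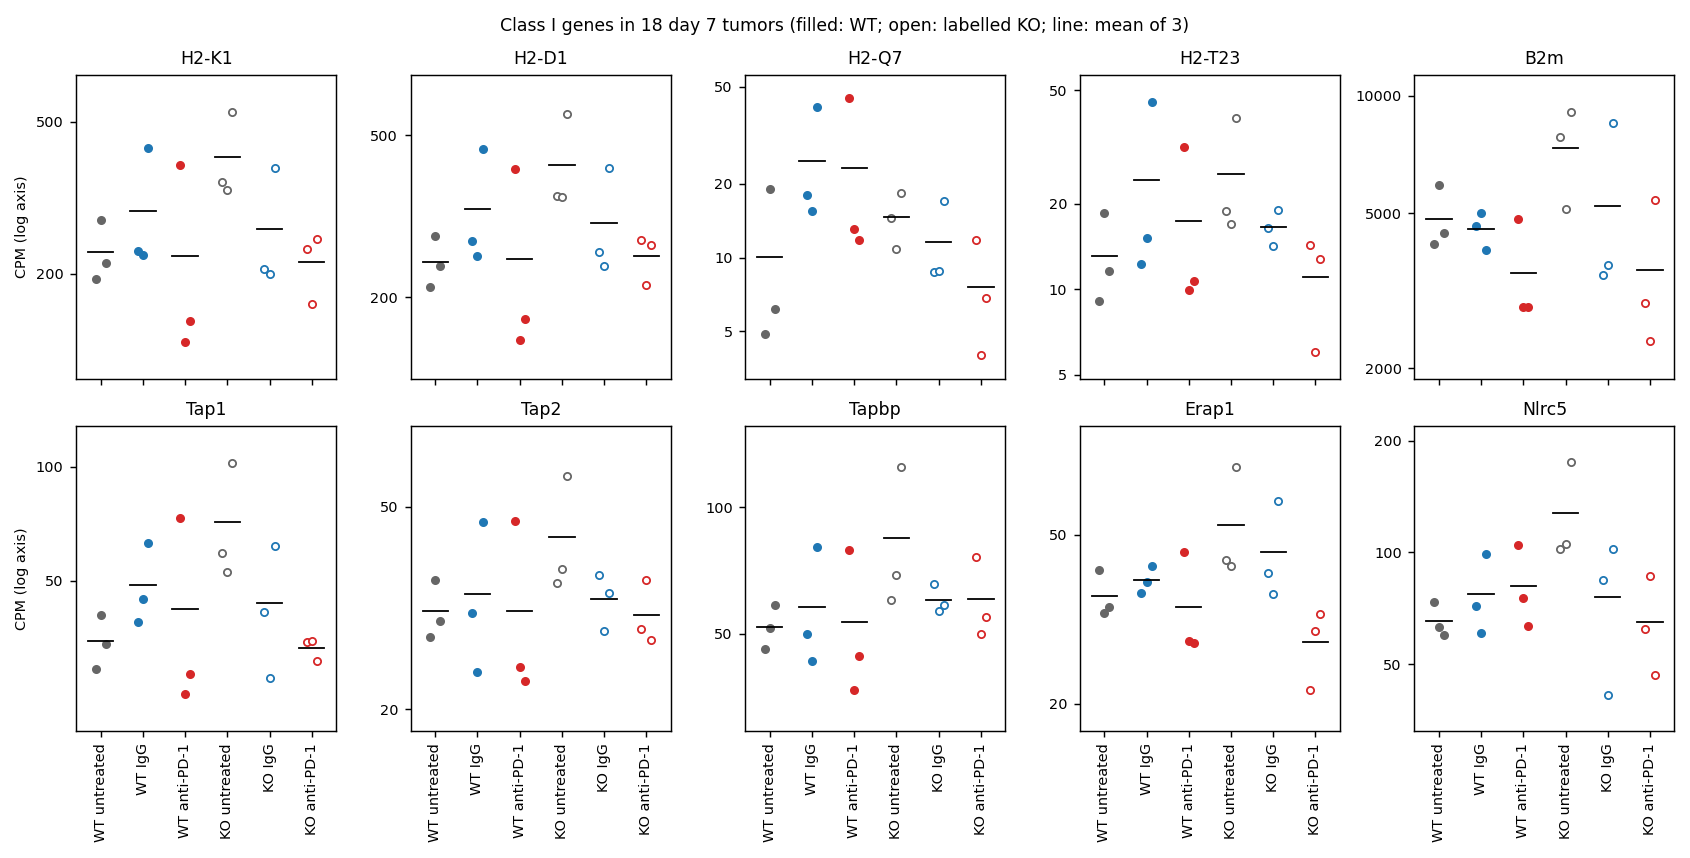
Level of each of the 10 genes (CPM, log axis) in each day 7 tumor, by genotype label and treatment; points are tumors and lines are means of 3. KO untreated had the highest mean for 9 of the 10 genes, all but H2-Q7.

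At day 7 the untreated tumors labelled KO had the highest mean of the 6 conditions for 9 members, and KO untreated replicate 4 was the highest of 18 libraries for 8. H2-K1 measured 404 ± 111 CPM in KO untreated, 293 ± 115 in WT IgG, 262 ± 102 in KO IgG, 228 ± 42.8 in WT untreated, 222 ± 140.5 in WT anti-PD-1 and 215 ± 42.4 in KO anti-PD-1 (SD, n = 3 here and below). H2-D1 measured 423 ± 121 in KO untreated, 330.4 ± 116 in WT IgG, 305 ± 97.3 in KO IgG, 253 ± 33.7 in KO anti-PD-1, 249 ± 142 in WT anti-PD-1 and 245 ± 35.4 in WT untreated. All 5 neighbouring pairs overlapped for each of the 10 members, which is a description and not a test of a difference.

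H2-T23 measured 25.4 ± 12.8 CPM in KO untreated, 24.3 ± 18.4 in WT IgG, 17.4 ± 12.3 in WT anti-PD-1, 16.6 ± 2.44 in KO IgG, 13.1 ± 4.88 in WT untreated and 11.1 ± 4.403 in KO anti-PD-1. H2-Q7 measured 24.8 ± 14.1 in WT IgG, 23.2 ± 18.7 in WT anti-PD-1, 14.6 ± 3.77 in KO untreated, 11.6 ± 4.82 in KO IgG, 10.1 ± 7.87 in WT untreated and 7.55 ± 3.97 in KO anti-PD-1. H2-Q7 was the member that did not have its highest mean in KO untreated. B2m measured 7354 ± 2013 in KO untreated, 5222 ± 2854 in KO IgG, 4840 ± 935 in WT untreated, 4557 ± 496 in WT IgG, 3566 ± 1628 in KO anti-PD-1 and 3521 ± 1124 in WT anti-PD-1.

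The transporter and loading genes were also highest in KO untreated. Tap1 measured 71.4 ± 27.1 CPM in KO untreated, 48.8 ± 12.5 in WT IgG, 43.5 ± 17.2 in KO IgG, 42.2 ± 26.8 in WT anti-PD-1, 34.6 ± 5.70 in WT untreated and 33.2 ± 2.24 in KO anti-PD-1. Tap2 measured 43.5 ± 12.2 in KO untreated, 33.7 ± 11.7 in WT IgG, 32.98 ± 4.2 in KO IgG, 31.3 ± 13.5 in WT anti-PD-1, 31.1 ± 4.23 in WT untreated and 30.7 ± 4.51 in KO anti-PD-1. The 5 lower conditions of Tap2 lay close together. Tapbp measured 84.7 ± 34.9 in KO untreated, 60.4 ± 13.98 in KO anti-PD-1, 60.3 ± 4.76 in KO IgG, 57.9 ± 20.01 in WT IgG, 53.4 ± 22.6 in WT anti-PD-1 and 52.0 ± 6.28 in WT untreated. Erap1 measured 52.6 ± 16.8 in KO untreated, 45.5 ± 12.6 in KO IgG, 39.1 ± 2.88 in WT IgG, 35.9 ± 4.63 in WT untreated, 33.8 ± 10.1 in WT anti-PD-1 and 27.9 ± 5.68 in KO anti-PD-1. Nlrc5, the class I transactivator gene, measured 128 ± 41.3 in KO untreated, 81.1 ± 21.4 in WT anti-PD-1, 77.05 ± 19.6 in WT IgG, 75.8 ± 31.2 in KO IgG, 65.3 ± 7.18 in WT untreated and 65.02 ± 20.04 in KO anti-PD-1.

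The genotype question was addressed first in untreated tumors, where all 10 members were higher in the tumors labelled KO, as were 67.1% of all genes. Tap1 was 59.1, 52.6 and 102 CPM in the KO tumors and 29.3, 40.6 and 34 CPM in the WT tumors. Nlrc5 was 102, 105 and 175 CPM in KO and 73.4, 62.8 and 59.7 CPM in WT, and H2-K1 was 349, 331 and 532 CPM in KO and 194, 276 and 214 CPM in WT. Every KO tumor lay above every WT tumor for these 3 genes. H2-D1 was 354, 352 and 563 CPM in KO and 213, 283 and 239 CPM in WT, and Tapbp was 60.3, 69.2 and 125 CPM in KO and 46.02, 51.5 and 58.6 CPM in WT. Erap1 was 43.7, 42.1 and 72.0 CPM in KO and 41.2, 32.7 and 33.9 CPM in WT. These 3 also did not overlap, the last by a narrow margin, which makes 6 members against 9.73% of all genes. H2-T23 was 18.9, 17.01 and 40.2 CPM in KO and 9.06, 18.5 and 11.6 CPM in WT, and Tap2 was 35.4, 37.8 and 57.5 CPM in KO and 27.8, 35.9 and 29.8 CPM in WT. B2m was 7844, 5141 and 9077 CPM in KO and 4158, 5906 and 4455 CPM in WT, and H2-Q7 was 14.6, 10.8 and 18.4 CPM in KO and 4.87, 19.1 and 6.19 CPM in WT. Each of these 4 overlapped because of 1 WT tumor, replicate 2.

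None of the 10 differences passed the adjusted test, in which 0.584% of the 30837 genes were called higher and 0.00324% lower. The log2 fold change was 1.04 for Tap1 (SE 0.35, adjusted p = 0.242), 0.97 for Nlrc5 (SE 0.30, adjusted p = 0.198), 0.83 for H2-K1 and 0.48 for Tap2, the lowest of the 10. The members' median was 0.75 against 0.49 over all genes, and 6 members had an unadjusted p under 0.05, against 13.1% of all genes. Without the 3 libraries high in sensory receptor counts, which leaves 2 KO tumors, the median of all genes was 0 and that of the members 0.91. In that fit 4 members passed the adjusted test, against 1.22% of all genes in either direction. Without KO untreated replicate 4 the members' median was 0.44 and 1 member had an unadjusted p under 0.05.

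**Figure D3:**
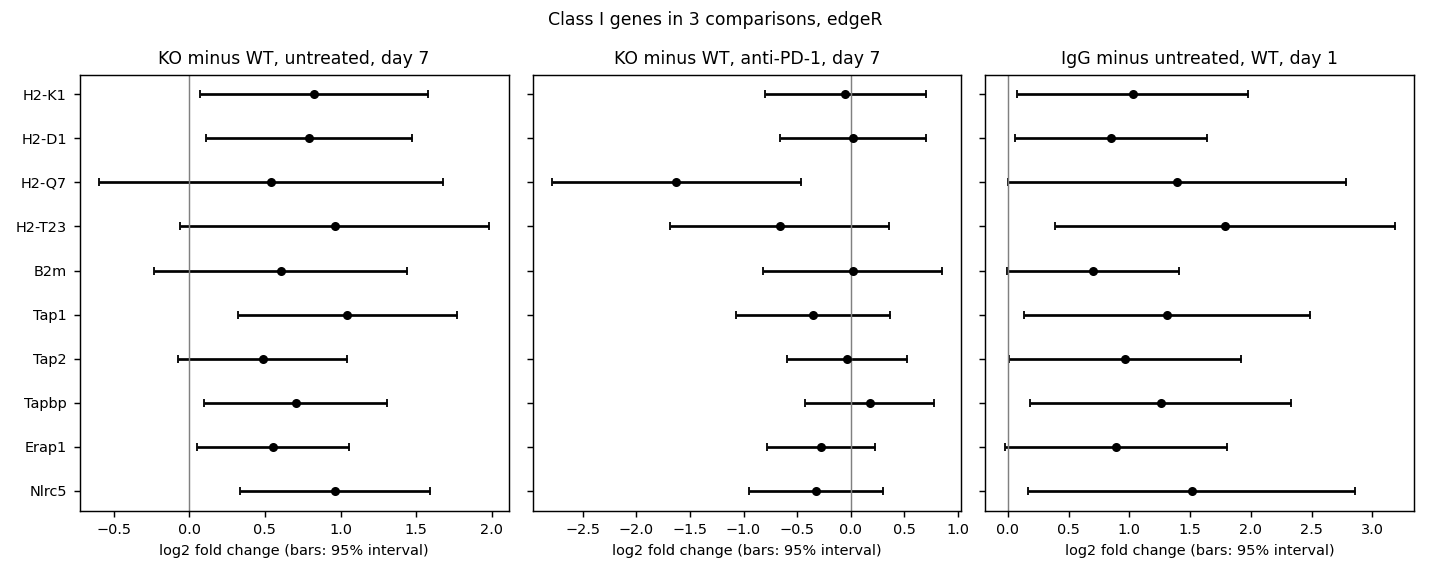
Log2 fold change of each of the 10 genes with its 95% interval in 3 comparisons, from edgeR with 3 tumors a group. All 10 genes sit to the right of 0 for KO minus WT untreated and for IgG minus untreated on day 1 in WT tumors, and 3 do so for KO minus WT under anti-PD-1.

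Other genes of the pathway passed where the members did not. Of 12 tested genes of peptide processing and loading, 4 rose in untreated KO tumors: the immunoproteasome subunits Psmb9 (2.11, adjusted p = 0.00724), Psmb8 (1.26, adjusted p = 0.0244) and Psmb10 (1.19, adjusted p = 0.0319), and the proteasome activator Psme2 (1.497, adjusted p = 0.00432). Psmb9 was 36.5, 19.7 and 47.1 CPM in KO and 5.84, 9.60 and 8.44 CPM in WT. Psme2 was 49.95, 35.9 and 50.7 CPM in KO and 14.03, 18.9 and 15.5 CPM in WT. Psmb8 was 60.6, 43.1 and 78.9 CPM in KO and 21.4, 26.5 and 28.2 CPM in WT, and Psmb10 was 34.02, 23.2 and 41.8 CPM in KO and 14.1, 13.96 and 15.3 CPM in WT. The groups did not overlap for any of the 4. The processing genes split 6 higher and 6 lower, with a median of 0.35 against 0.49 over all genes. Psmb9 is the gene that shares the Tap1 promoter window shown above, and its exons overlap those of Tap1 by 212 bases in the annotation. Of 20 regulators, 1 rose: Irf1, an interferon-induced transcription factor, at 52.0, 41.1 and 104 CPM in KO and 19.5, 27.7 and 23.3 CPM in WT (1.49, adjusted p = 0.0410). None of the 17 other class I and class I-like heavy chains passed. The calls depended on the libraries used. Leaving out 1 tumor, the number of processing genes called was 0 without WT untreated replicate 1, where 1 gene was called in the whole table, 2 without WT replicate 2, WT replicate 3 or KO replicate 4, 3 without KO replicate 1 and 6 without KO replicate 2. It was 2 with the sensory receptor level as a covariate and 6 without the 3 libraries high in sensory receptor counts. Psmb10 lost its call in 5 of the 6 fits that left out 1 tumor. Psmb8 and Irf1 each lost it in 4, those without KO replicate 4 or any 1 WT tumor. Without KO replicate 4, Psmb8 was 1.03 (adjusted p = 0.0756) and Irf1 0.99 (adjusted p = 0.174). With the covariate, Psmb8 (adjusted p = 0.0522), Psmb10 and Irf1 lost their calls.

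**Figure D4:**
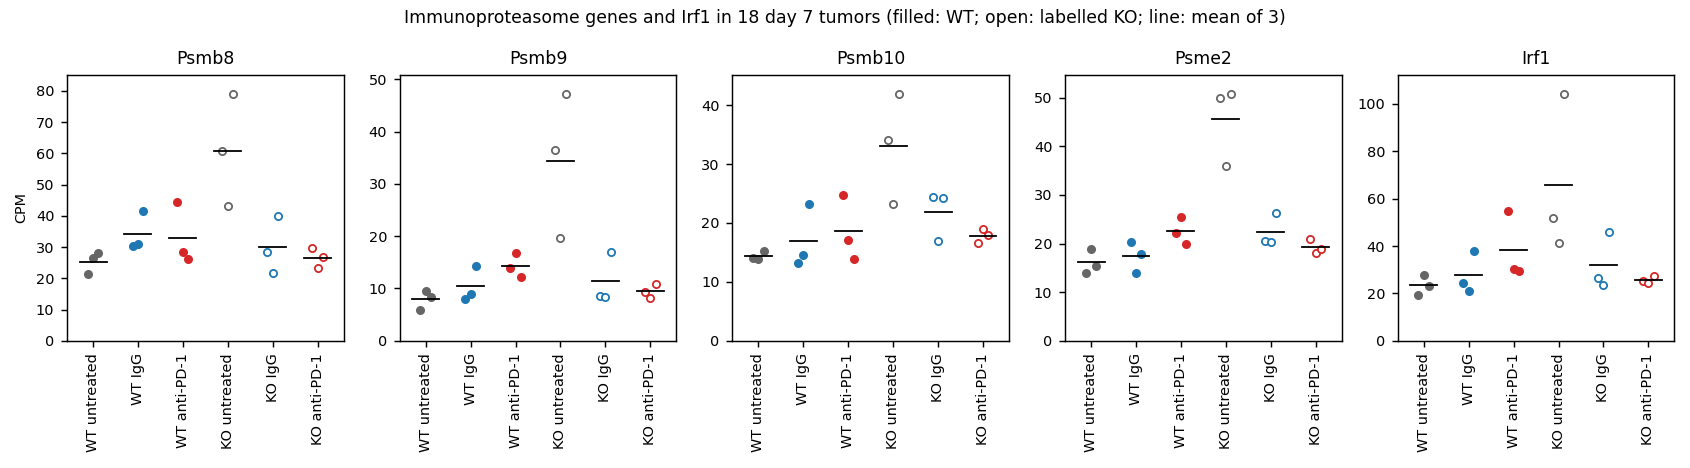
Level of Psmb8, Psmb9, Psmb10, Psme2 and Irf1 (CPM, linear axis) in each day 7 tumor, by genotype label and treatment, where points are tumors and lines are means of 3. The 3 untreated KO tumors lie above the 3 untreated WT tumors for all 5 genes.

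Markers of T and NK cells moved with the untreated genotype contrast. The 8 markers summed to 7.83 to 17.2 CPM in KO and to 2.32 to 5.70 CPM in WT untreated tumors, with 4 of the 8 at 0 in WT replicate 1 and none at 0 in all tumors of a group. The leukocyte markers overlapped, at 64.9 to 114 CPM in KO and 71.7 to 166 CPM in WT, as did the macrophage markers, at 246 to 352 CPM and 289 to 628 CPM. Fibroblast markers were lower in KO without overlap, at 443 to 623 against 687 to 2876 CPM, and endothelium markers at 170.5 to 209.5 against 210.3 to 231 CPM, with no marker of either list at 0 in a whole group. Ifng, the interferon-gamma gene, was 0.408, 0 and 0.375 CPM in KO and 0 in all 3 WT tumors. The part of these cells in the result was not tested.

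After either antibody the members lay on both sides of 0. Under IgG 3 of 10 members were higher in KO, against 35.5% of all genes, from −1.10 for H2-Q7 to 0.22 for Erap1, and the lowest adjusted p was 0.626, with called genes at 0%. Under anti-PD-1 3 of 10 were higher, against 32.4% of all genes, from −1.63 for H2-Q7 (unadjusted p = 0.00844, adjusted p = 0.129) to 0.17 for Tapbp, with called genes at 0% and a median of −0.91 over all genes. H2-Q7 was 11.8, 3.98 and 6.84 CPM in the KO anti-PD-1 tumors and 44.8, 13.1 and 11.8 CPM in the WT ones, so the groups touched at 1 tumor each. Without the 3 libraries, where WT anti-PD-1 is replicate 2 alone, all 10 members were lower in KO and their median was −0.68 in place of −0.16, with that of all genes at 0 and no member called. T and NK cell and dendritic cell markers were lower in KO anti-PD-1 without overlap, the latter at 5.29 to 9.11 against 17.4 to 27.1 CPM, and melanoma markers higher, at 15480 to 17130 against 9575 to 13270 CPM, and their part was not tested. Under IgG 5 of 10 were higher without the 3 libraries, which hold no IgG tumor. Averaged over treatments, KO minus WT ran from −0.73 for H2-Q7 to 0.31 for Tapbp, with 8 of 10 higher, against 35.2% of all genes. None was called, and genes called higher were 0.00973%. That average had a members' median of 0.19, and of 0.04 without the 3 libraries, where 7 were higher.

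Within genotype, IgG against untreated was below 0 for all 10 members in the tumors labelled KO, while 32.4% of all genes were above 0, from −0.21 for Erap1 to −0.75 for Nlrc5 (unadjusted p = 0.0210, adjusted p = 0.315). Genes called lower there were 0.188%, and they included Psmb9 (−1.60, adjusted p = 0.0440) and Psme2 (−1.03, adjusted p = 0.0272), which fell. All 10 stayed below 0 without the 3 libraries (median −0.64 in place of −0.49). Leukocyte markers summed to 116 to 156 CPM after IgG and 64.9 to 114 CPM untreated in KO, and fibroblast markers to 1613 to 2528 and 443 to 623 CPM. In WT tumors 9 of 10 members were higher after IgG, against 58.9% of all genes and with called genes at 0%, from −0.09 for B2m to 1.304 for H2-Q7 (unadjusted p = 0.0279, adjusted p = 0.566), and 9 were higher without the 3 libraries. T and NK cell markers were 11.8 to 23.5 CPM after IgG and 2.32 to 5.70 CPM untreated in WT, dendritic cell markers 10.2 to 29.4 and 6.85 to 9.26 CPM, endothelium markers 239.5 to 297 and 210.3 to 231 CPM, and melanoma markers 10280 to 15240 and 15740 to 17560 CPM, none overlapping. The part of these cells in either genotype was not tested. The test that follows was also added after the values had been seen. The difference between the genotypes in this step was below 0 for all 10, while 32.6% of all genes were above 0, from −0.33 for Erap1 to −1.64 for H2-Q7, and its lowest adjusted p was 0.219, with all 10 below 0 without the 3 libraries too (lowest adjusted p = 0.275). Anti-PD-1 against IgG ran from −0.47 for H2-T23 to 0.08 for Nlrc5 in WT and from −0.70 for Erap1 (unadjusted p = 0.00849, adjusted p = 1) to 0.00 for Tapbp in KO, and 9 of 10 members were lower in each. The WT direction turned without the 3 libraries: with replicate 2 as the 1 anti-PD-1 tumor, all 10 were higher, with a median of 0.45 in place of −0.21 and H2-T23 at 0.42. H2-T23 also turned to 0.38 without WT IgG replicate 3, and in KO 9 of 10 stayed lower without the 3 libraries. Genes above 0 were 68.7% in WT and 41.9% in KO, and called genes were 0% in both. The interaction of genotype with anti-PD-1 over IgG ran from −0.52 for H2-Q7 to 0.14 for H2-D1 with a lowest adjusted p of 0.729 and called genes at 0%. All 10 were below 0 without the 3 libraries, H2-D1 at −0.63, again with 1 WT anti-PD-1 tumor. The contrast of KO with WT and that of IgG with untreated use the same untreated KO tumors, and are not independent of each other.

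The response to anti-PD-1 relative to untreated tumors differed between genotypes for 2 of the 10 members, in a test added after the values had been seen. Nlrc5 went from 128 to 65.02 mean CPM in KO and from 65.3 to 81.1 in WT, a difference of −1.29 (SE 0.42, adjusted p = 0.0445). Tap1 went from 71.4 to 33.2 in KO and from 34.6 to 42.2 in WT, a difference of −1.40 (SE 0.49, adjusted p = 0.0484). Its higher WT mean came from replicate 2 alone. The other 8 members were also below 0, while 31% of all genes were above 0. They included −2.16 for H2-Q7 (adjusted p = 0.0502) and −0.52 for Tap2. When the fit held no other groups, the adjusted p was 0.0544 for Nlrc5 and 0.0613 for Tap1, so neither passed. Genes called lower in this test were 19.6% of all and genes called higher 2.85%, so 2 of 10 members is near the share of all genes, and the members' median of −0.85 lay above the −1.36 of all genes. With the 3 libraries high in sensory receptor counts left out, 0.107% of all genes were called, the median of all genes was 0 and that of the members −1.67. Tap1 alone of the members passed there (−2.29, adjusted p = 0.00619), on 1 WT anti-PD-1 tumor, replicate 2, whose Tap1 was 73.1 CPM against 25.05 and 28.3 CPM in the tumors left out, and with the spread taken from the other groups. Both calls held in 1 of the 12 fits that left out 1 tumor, the fit without KO untreated replicate 2. Of the processing genes 5 of 12 were called lower, among them Psmb9 (−2.70, adjusted p = 0.0137), Psme2 (−1.72, adjusted p = 0.0129), Psmb8 (−1.58, adjusted p = 0.0244) and Tapbpl (−1.502, adjusted p = 0.0282), and 1, Tpp2, was called higher. Of the regulators Irf1 (−2.07), Socs1 (−3.00) and Ciita (−2.93) were called lower and Wwp2 (0.72) higher. Of the other heavy chains 6 of 17 were called lower, H2-Bl, H2-Q1, H2-T3, H2-Q6, H2-M3 and H2-T22, and no fold change is given for the first 3 because libraries of the groups compared held 0 counts. With the sensory receptor covariate, or without KO anti-PD-1 replicate 1, WT untreated replicate 1 or WT untreated replicate 3, no gene of the whole table was called, so these calls of processing, regulator and heavy chain genes were lost as well. T and NK cell markers moved with this test, with 6 of 8 called lower, at 2.02 to 4.38 CPM summed in KO anti-PD-1 and 15.3 to 31.5 CPM in WT anti-PD-1 tumors. The WT anti-PD-1 tumors include the 2 libraries with the most sensory receptor counts, and the part of either in the result was not tested.

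The members moved together across tumors, as a description in which all points share a library and its depth. Spearman correlation over the 45 pairs of members ran from 0.366 to 0.982 (median 0.806) over the 30 time-course tumors, and from 0.298 to 0.979 (median 0.699) over the 18 day 7 tumors. With condition means removed the medians were 0.812 and 0.631. H2-K1 with H2-D1 was the closest pair in both experiments, and Tap1 with Nlrc5 reached 0.964 in the time course. H2-Q7 was the least like the others, with a median of 0.584 to its 9 partners in the time course and 0.445 at day 7.

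**Figure D5:**
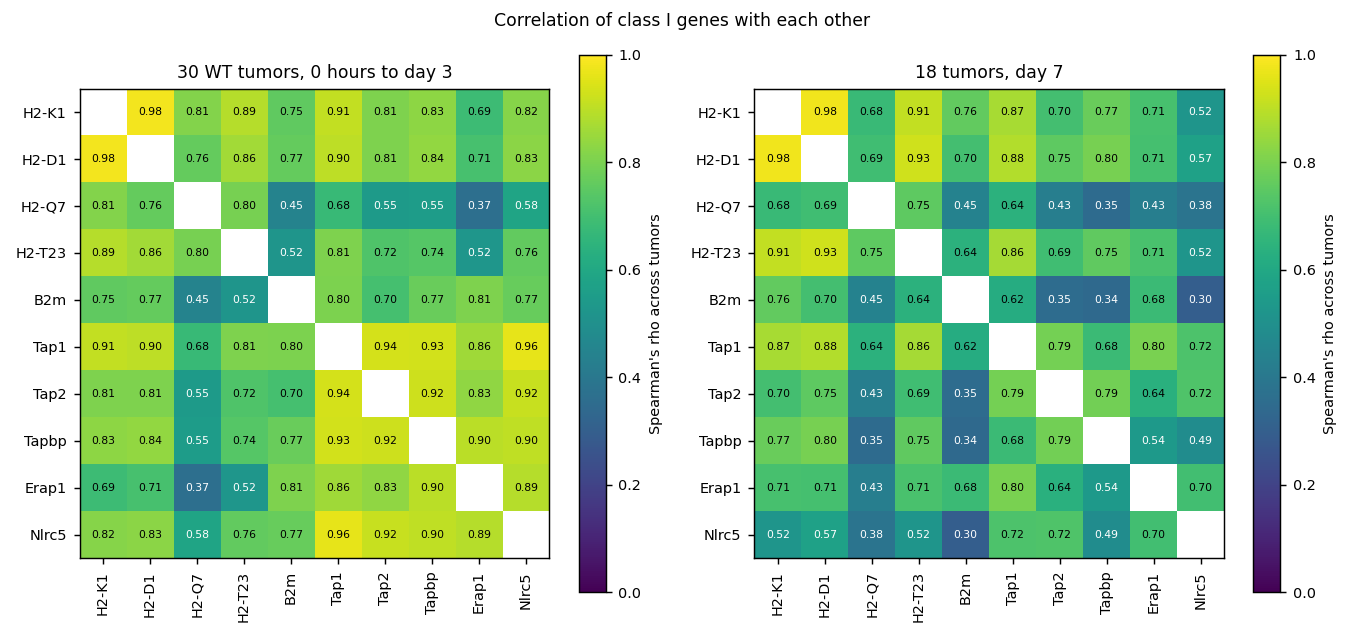
Spearman correlation of each pair of the 10 genes over the 30 time-course tumors (left) and the 18 day 7 tumors (right). H2-K1 with H2-D1 is the closest pair in both, at 0.982 and 0.979, and H2-Q7 has the weakest row.

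Outside the members, the genes whose pattern was most like the members' mean log2(CPM + 0.5) were picked by Spearman correlation among genes with a mean of at least 1 CPM. Over the 30 time-course tumors they were H2-Q4 (0.946), a class I heavy chain, Gbp3 (0.945) and Gbp4 (0.935), interferon-induced GTPases, Zbp1 (0.929), a nucleic acid sensor, and Irf8 (0.924), a transcription factor of the interferon regulatory family, out of 15099 genes. Over the 18 day 7 tumors they were Gbp9 (0.922), H2-Q4 (0.922), Gm4951 (0.917), Dhx58 (0.905) and Parp14 (0.905), out of 15889. H2-Q4 was on both lists.

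The members' mean level was set against 4 marker lists in each experiment, 8 relations in all. Tumors were permuted across all conditions of an experiment, so differences between conditions enter these p-values. No p-value was computed with condition means removed. In the 30 time-course tumors it rose with the T and NK cell list (Pearson r = 0.777, permutation p = 1e-05, the smallest the 100000 permutations can give, adjusted p = 8e-05; Spearman rho = 0.745, permutation p = 2e-05) and with the leukocyte list (r = 0.627, permutation p = 0.0002, adjusted p = 0.0008; rho = 0.585, permutation p = 0.00086). Without the 2 tumors farthest from the median of the list, r was 0.702 and 0.546. The macrophage list (r = 0.351, permutation p = 0.0576, adjusted p = 0.0922; rho = 0.349, permutation p = 0.0593) and the melanoma list (r = −0.17, permutation p = 0.372, adjusted p = 0.425; rho = −0.141, permutation p = 0.454) did not pass. Their r without the 2 farthest tumors was 0.354 and −0.0603. In the 18 day 7 tumors the leukocyte list (r = 0.624, permutation p = 0.005, adjusted p = 0.0133; rho = 0.618, permutation p = 0.00794) and the macrophage list (r = 0.535, permutation p = 0.022, adjusted p = 0.044; rho = 0.54, permutation p = 0.0222) passed. Without the 2 farthest tumors their r was 0.487 and 0.341. The T and NK cell list (r = 0.306, permutation p = 0.215, adjusted p = 0.287; rho = 0.321, permutation p = 0.194) and the melanoma list (r = 0.0613, permutation p = 0.811, adjusted p = 0.811; rho = 0.135, permutation p = 0.593) did not, and their r without the 2 farthest tumors was 0.461 and 0.155. Without the 3 libraries high in sensory receptor counts, r at day 7 was 0.69 for T and NK cells, 0.594 for leukocytes, 0.469 for macrophages and −0.216 for melanoma. With condition means removed, r over all 18 was 0.0209 for T and NK cells, 0.784 for leukocytes, 0.761 for macrophages and −0.0869 for melanoma, and over the 30 time-course tumors 0.779, 0.59, 0.208 and −0.0911. Class I genes are expressed by both leukocytes and melanoma cells, and the share each gave was not tested.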

How the data were processed

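RNA of 48 tumors was sequenced, strand-specifically, in 16 conditions of 3 tumors. The authors trimmed adapters with cutadapt 1.8.1, aligned reads with STAR 2.7.7a to mm10 and made gene-level counts with RSEM 1.3.0 and GENCODE vM21, per the study's methods and the submitters' processing notes. The deposited table held whole-number counts for 55450 genes, and which counter wrote it could not be told from the values. Each experiment was normalized on its own (TMM). Genes were kept by filterByExpr with a minimum count of 10, and edgeR 4.0.16 (R 4.3.3, limma 3.58.1) fitted all conditions of an experiment with the quasi-likelihood test, on 26848 genes with 20 residual degrees of freedom and on 30837 genes with 12. P-values were adjusted by Benjamini-Hochberg over all genes, with a threshold of 0.05. Comparisons numbered 23, and 8 tests of differences between contrasts were added after seeing the data. All tests were two-sided. The same steps were tested on simulated data with known changes. The simulated spread was set below that of the tumors, whose common biological coefficient of variation in edgeR was 0.671 (time course) and 0.786 (day 7). The simulation therefore does not give the power or error rate at the real spread.

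CPM used TMM library sizes, and RPKM divided CPM by the summed exon length. Depth gives a floor of 3 counts, which is 0.0688 to 0.105 CPM in the time course and 0.0763 to 0.197 CPM at day 7, and covers counting error only. Groups came from sample titles, and the 6 hour time (D0 in the titles) and the day 7 time from the study's text. Replicates were separate tumors, and 2 libraries of a group never agreed within sampling noise (chi-square per gene of 16.2 to 411 over 48 pairs). Correlations used log2(CPM + 0.5) and 100000 permutations. The members and all lists were chosen with earlier results of these data known. The naming rule gave every member's level in each condition, the members with the highest and lowest log2 fold change where fewer than 2 were called, up to 4 called genes per pathway list, and the 5 genes most like the members' mean. The processing list held 13 genes, of which Nrdc was not matched. Promoter sequence came from RefSeq (GRCm38.p6), which matched 8 of the 10 members, all but Tap2 and Nlrc5. Alternatives were DESeq2 1.42.0 size factors and its Wald test, no filter, the replicate number as a block, a sensory receptor covariate, fits of only the groups compared, each tumor left out in turn, and sets of 3 libraries left out.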

Additional observations from a re-analysis of the deposited data

Results flagged for a closer look

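In the tumors labelled KO and the WT tumors, the step from untreated to anti-PD-1 differed for Tap1 (KO minus WT difference −1.396 on the log2 scale, 95% interval −2.42 to −0.37, edgeR adjusted p = 0.0484) and for Nlrc5 (−1.286, 95% interval −2.17 to −0.40, adjusted p = 0.0445), by a test of the difference itself. Both KO means were lower after anti-PD-1 and both WT means higher. The higher WT mean of Tap1 came from replicate 2 alone. Tap1 was 73.1, 25.05 and 28.3 CPM in the WT anti-PD-1 tumors and 29.3, 40.6 and 34 CPM in the untreated ones. Nlrc5 overlapped in WT, at 105, 75.2 and 63.2 CPM against 73.4, 62.8 and 59.7 CPM. Among all genes 19.6% were called lower by this test. Both calls were lost when only the groups compared were fitted (−1.39 and −1.28), with the sensory receptor covariate (−2.37 and −1.63) and with the replicate block (−1.27 and −1.19). Leaving out 1 tumor kept both calls in 1 of 12 fits, without KO untreated replicate 2, and Nlrc5 alone in another, without WT anti-PD-1 replicate 2. Without the 3 libraries high in sensory receptor counts Tap1 passed (−2.29, adjusted p = 0.00619) and Nlrc5 did not (−1.78, adjusted p = 0.121), in a fit with 1 WT anti-PD-1 tumor, its highest, and the spread taken from the other groups. Over all settings tried, the adjusted p ran from 0.00138 to 0.777 for Tap1 and from 0.00704 to 1 for Nlrc5, and both stayed below 0 in each.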

How the results depend on the processing

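The number of members called was 0 in every comparison reported but the KO minus WT difference in the anti-PD-1 step, where it was 2, and changed as follows. Without the filter 1 was called for IgG against untreated in WT on day 1 (0.418% of all genes) and 1 at day 7. For KO against WT, the fit without the filter called 3 in untreated tumors (2.63% of all genes) and 1 under anti-PD-1 (5.52%). It also called 1 each under IgG and on average. For the KO minus WT difference in the IgG step it called 3 (3.05% of all genes). For KO against WT untreated, 4 were called without the 3 libraries high in sensory receptor counts (1.22% of all genes). With only the groups compared 2 were called (2.18%), and by the DESeq2 Wald test 1 (3.88%). The Wald test also called 1 for KO against WT under anti-PD-1, where 11.5% of all genes were called. For the KO minus WT difference in the anti-PD-1 step, 4 were called with DESeq2 size factors (24.8% of all genes). Another 2 settings called 4, the fit without the filter (20.9%) and the Wald test (22.4%). With the sensory receptor covariate 0 were called (0%), and with only the groups compared 0 (1.19%). The fit without the 3 libraries, which leaves 1 WT anti-PD-1 tumor, is described above. Leaving out 1 tumor gave 0 to 4 in this difference. The count was 4 without KO untreated replicate 2 (30.4% of all genes), 1 without WT anti-PD-1 replicate 2 (45.8%) and 0 without any of the other 10. Genes called in the whole table ran over all alternatives from 0.00324% (without WT untreated replicate 1) to 3.88% (Wald test) for KO against WT untreated, and from 0% (with the covariate, and without KO anti-PD-1 replicate 1 or WT untreated replicate 1 or 3) to 45.8% (without WT anti-PD-1 replicate 2) for the difference in the anti-PD-1 step. The cause was not tested.

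The replicate numbers did not pair the tumors: the median correlation of same-numbered tumors' deviations was −0.075 over 65 pairs in the time course and −0.0176 over 36 at day 7. With the replicate block, the KO minus WT difference in the anti-PD-1 step called 0 members, and signs turned for B2m in anti-PD-1 against IgG at 6 hours (−0.011), H2-Q7 in IgG against untreated at 6 hours (0.065) and in anti-PD-1 against untreated at 6 hours (−0.12), Tap2 in the mean of anti-PD-1 against IgG (−0.15) and B2m in day 1 against 6 hours (0.019). The block also ended the calls of Psmb10 (adjusted p = 0.0591) and Irf1 (adjusted p = 0.0922) in KO against WT untreated.

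Other values that changed sign, none of them called, were as follows. With the covariate: B2m in anti-PD-1 against IgG at 6 hours (−0.0014), in untreated day 1 against 0 hours (0.00047), in day 1 against 6 hours (0.060) and in IgG against untreated in WT at day 7 (0.018), Tap2 in the mean of anti-PD-1 against IgG (−0.071), Tapbp in anti-PD-1 against IgG in KO (−0.054) and in KO against WT under anti-PD-1 (−0.48), and H2-D1 in the interaction (−0.11). Without the 3 libraries highest in Nlrc5, chosen after seeing the data: Nlrc5 in anti-PD-1 against IgG on day 1 (0.19), H2-Q7 in anti-PD-1 against untreated at 6 hours (−0.15), and B2m in the mean of IgG against untreated (−0.12) and in day 1 against 6 hours (0.032). Without the 3 libraries high in sensory receptor counts, which leaves 1 WT anti-PD-1 tumor that is assumed to vary like the other groups: H2-T23 in anti-PD-1 against IgG in WT at day 7 (0.42), Tapbp in KO against WT under anti-PD-1 (−0.37) and H2-D1 in the interaction (−0.63). B2m in day 1 against 6 hours was 0.0095 with DESeq2 size factors, 0.0042 without the filter, 0.015 with only the groups compared and 0.0094 by the Wald test. Tap2 in the mean of anti-PD-1 against IgG was −0.0067 with size factors and −0.0069 by the Wald test. Nlrc5 in anti-PD-1 against IgG in WT at day 7 was −0.0017 without the filter, and Tapbp in KO was −0.00054 with only the groups compared.

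Leaving out 1 tumor gave these ranges for values that crossed 0. In anti-PD-1 against IgG they were −0.025 to 0.57 (B2m, 6 hours), −1.49 to 0.19 (Nlrc5, day 1), −0.68 to 0.36 (H2-Q7, day 3), −0.16 to 0.33 (Tap2, mean), −0.070 to 0.33 (Nlrc5, WT day 7), −1.13 to 0.38 (H2-T23, WT day 7) and −0.20 to 0.13 (Tapbp, KO). In IgG against untreated they were −0.46 to 1.07 (H2-Q7, 6 hours), −0.031 to 1.09 (H2-Q7, day 3), −0.0015 to 0.22 (B2m, mean), −0.18 to 0.082 (B2m, WT day 7) and −0.46 to 0.085 (Erap1, KO). They were −0.21 to 1.32 for H2-Q7 in anti-PD-1 against untreated at 6 hours, −0.31 to 0.079 for B2m in untreated 6 hours against 0 hours, −0.37 to 0.021 for B2m and −1.19 to 0.057 for H2-T23 in untreated day 1 against 0 hours, and −0.15 to 0.10 for B2m in day 1 against 6 hours. At day 7 they were −0.027 to 0.36 for Erap1 in KO against WT under IgG, −0.036 to 0.55 for Tapbp under anti-PD-1, and −0.21 to 0.62 for H2-D1 and −1.11 to 0.29 for H2-Q7 in the interaction. The cause was not tested.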
